A study of Arabidopsis thaliana with 12 samples.

Results

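The genes described here are those whose signal was at least 4-fold higher after a light pulse than in darkness both at night and in the subjective day. Each array was scaled to a 2% trimmed mean of 100, group means under 20 were set to 20, and a probe set had to reach a pulse-to-control ratio of 4 at both times. Of 22746 probe sets, 128 reached that ratio at night (0.563%), 701 in the subjective day (3.08%) and 92 at both times (0.404%). The 92 made up 71.9% of the night set and 13.1% of the day set. A list of 13 genes was left out by name (GI, HYH, AT3G44450, COR15A, COR15B, UGT78D1, UGT78D2, AT1G06000, TBL26, AT2G27420, AT3G14200, AT2G20560 and AT1G67360), which removed 10 probe sets and left 82 members. The pulse-to-control folds of the members therefore come from the selection itself and are given as a description, with no test.

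Aerial rosettes of wild-type plants (Arabidopsis thaliana, Columbia ecotype) supplied the total RNA for 12 Affymetrix ATH1 arrays. Seedlings of 15 days, grown in cycles of white light for 12 h and darkness for 12 h, were all moved to constant darkness, controls included. Pulsed plants then received white light for 1 h, either mid-night (night pulse) or mid-subjective day (day pulse), while dark controls for each time got none (night control and day control), with 3 arrays in each of the 4 groups. The labels give CT 6 for the night samples and CT 18 for the day samples, which conflicts with the usual count from subjective dawn, so the groups follow the sample titles. Whether the arrays of a group came from separate plants is not stated, so p-values measure only the spread between arrays, and their number limits the precision.

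The deposited signals were not on one scale, with trimmed means from 65.9 to 176.5 per array, and were quantile normalized for the levels and tests below. Probes at the 3' end of GAPDH were brighter than those at its 5' end, which reflects RNA integrity, and this ratio reached 9.29 for day pulse replicate 1 and 8.75 for day control replicate 2, with 2.16 to 5.16 for the rest. Of 10 leaf markers listed, 2 had a named probe set, RCA and LHCB4.1, and their summed signal ran from 8475 to 11380 in the day controls and from 12390 to 14400 in the other groups. The lower sum came from RCA alone, with means of 7714 in night and 3921 in day controls. LHCB4.1 went the other way, from 5456 to 6326. Of 7 root markers, 3 had one, with EXPA7 at 3.32 and EXPA18 at 3.76 but BGLU23 at 1506 in the night controls, and their sum was 1064 to 1929 in night controls, 1305 to 1836 in night-pulsed, 863 to 918 in day controls and 409.5 to 772 in day-pulsed arrays. Their part in the results was not tested. In whole rosettes, fewer cells of a type and less RNA per cell cannot be told apart.

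Plants sense white light through phytochromes, which absorb red and far-red light, and cryptochromes and phototropins, which absorb blue light. In darkness the ubiquitin ligase complex around COP1 removes transcription factors that promote light responses, and light lets these factors accumulate within minutes to hours. The circadian clock also sets how strongly many light-responsive genes react at a given hour. Early light-induced genes include chaperones and feedback components that limit the signal.

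On the scale of the selection the members' night ratios ran from 4.005 to 26.7 with a median of 5.72, and their day ratios from 4.27 to 136 with a median of 11.2. The day ratio was the larger for 65 members and the night ratio for 17. The same count over all probe sets was not made. With trimmed-mean scaling the median pulse effect over all tested probe sets was -0.067 log2 units at night and 0.096 in the day. All 82 members passed the filter on low signals that the tests across 13647 probe sets used. Only 32 members, from 31 genes, carried 1 gene name in the array annotation, 2 carried several and 48 carried none. That is 39.0% with 1 name, against 59.4% of all probe sets. The unnamed members had median ratios of 5.81 at night and 10.8 in the day and the named ones 5.53 and 11.6.

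**Figure D1:**
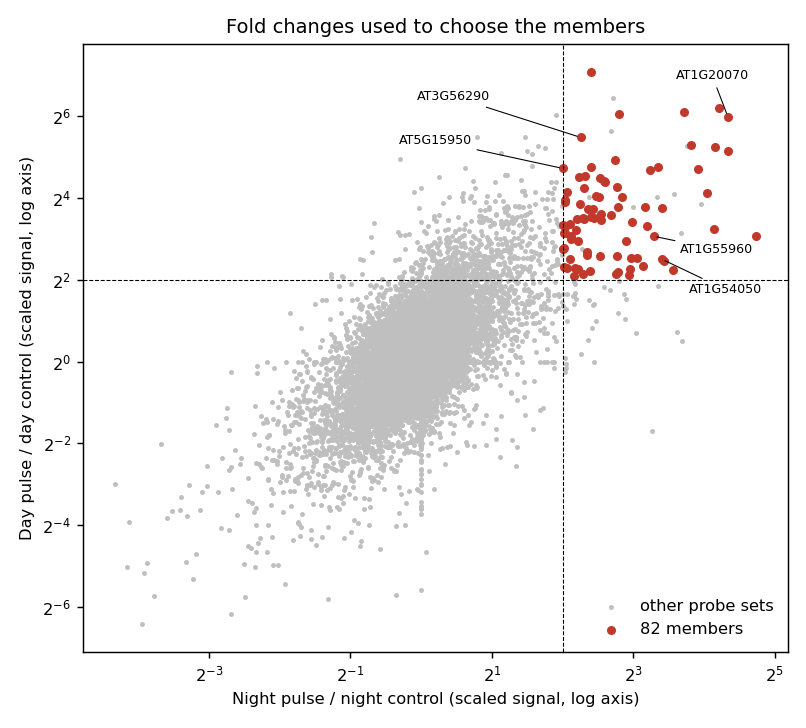
Pulse-to-control ratio at night (horizontal, log axis) against that in the subjective day (vertical, log axis) for every probe set on the scale of the selection, with the 82 members in red and dashed lines at 4. The members start at 4.005 at night and 4.27 in the day, and 65 of 82 have the larger ratio in the day.

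The lower edge of the set was not a gap, and the rule kept 43 probe sets with a floor of 50 and 158 without a floor. Just inside it lay AT5G15950, an S-adenosylmethionine decarboxylase of polyamine synthesis, with a smaller ratio of 4.0049, and a pair of unnamed probe sets at 4.0097 and 4.0281. Just outside lay an unnamed probe set at 3.9855, AT5G19875 at 3.9689 and SNZ at 3.9593. SNZ is a floral repressor of the AP2 family and a close relative of the member SMZ, and its ratios were 3.96 at night and 6.61 in the day.

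On the normalized scale the members were dim in darkness and bright after light, levels that the selection on the same arrays favoured. Their median normalized signal was 44.3 in night controls, 358 in night-pulsed, 28.6 in day controls and 510.4 in day-pulsed arrays, where the median of all tested probe sets stayed between 108 and 109.5. In the dark controls 68 members at night and 69 in the day lay below the median of all tested probe sets, and after the pulse 80 and 79 lay above it. Every pulsed array was above every control array for all 82 members at both times, as the selection made likely (background 13.4% of all probe sets at night and 16.3% in the day). A control mean under 21.8, the lowest mean signal kept for testing, is called dim here, and 10 members were dim in the night controls, 29 in the day controls and 7 in both. For a dim control the fold is a lower limit, taken after lifting both means to that signal where they lay under it, and is written "at least". All array values, means and folds from here on are on the normalized scale.

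**Figure D2:**
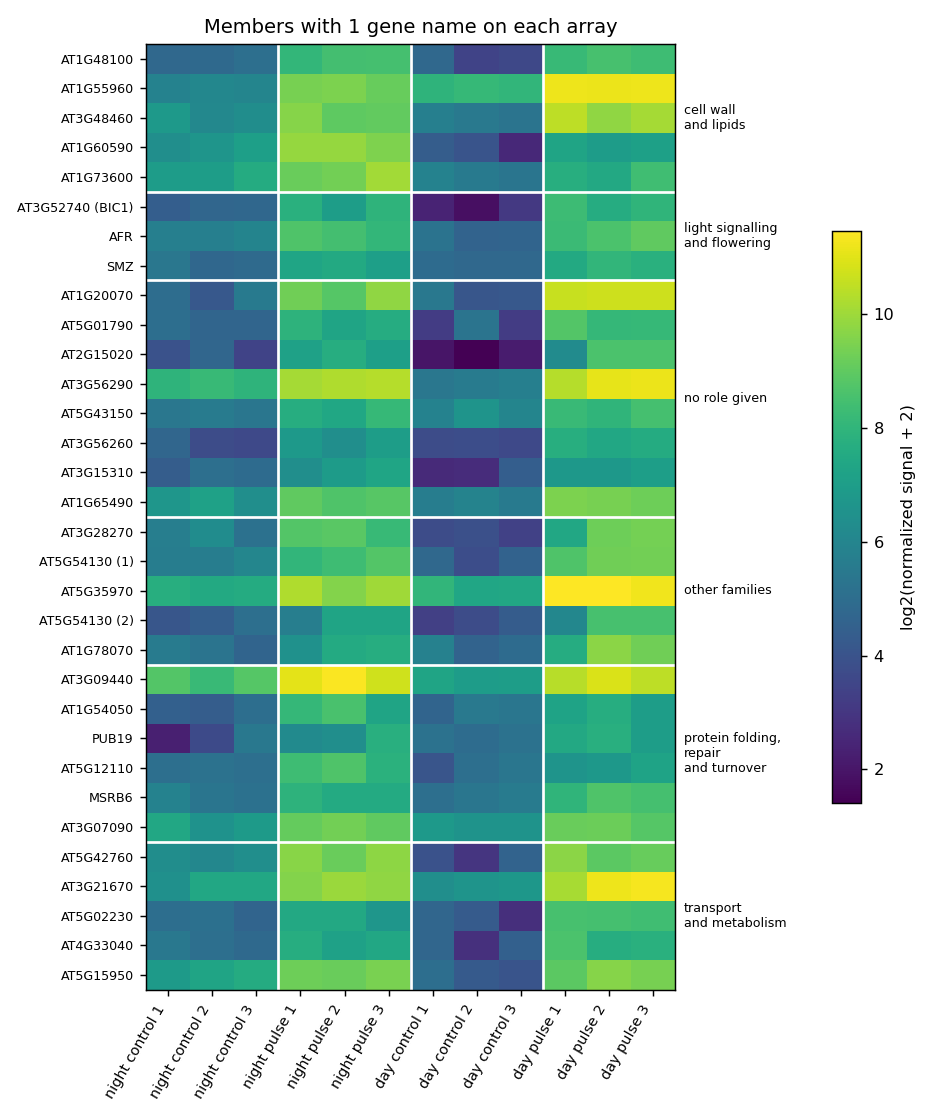
Level of each of the 32 named members on each of the 12 arrays, as log2(normalized signal + 2), grouped by the role given in the text; the columns are the 3 replicates of night control, night pulse, day control and day pulse. Both pulsed blocks are brighter than their control blocks in every line, and 29 of the 82 members, some of them shown here, are dim in the day controls.

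Of the named members, 3 act in light signalling or in the timing of flowering. BIC1 (AT3G52740) binds cryptochromes and stops them from forming the active dimers, a negative feedback on blue light signalling. Its 3 arrays read 19.4, 24.4 and 25.3 in night controls, 218, 127 and 245 after the night pulse, 3.41, 1.59 and 6.45 in day controls, and 317, 197 and 252 after the day pulse. The day controls were the lowest arrays and did not overlap the night controls, whereas the pulsed arrays of both times overlapped. BIC1 was thus 8.53-fold higher after the night pulse and at least 11.7-fold higher after the day pulse.

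AFR, an F-box protein that promotes phytochrome A signalling in far-red light, read 51.3, 51.4 and 60.3 in night controls and 407, 348 and 267 after the pulse, 6.27-fold higher. In the day it read 35.8, 22.2 and 23.1 without the pulse and 304, 395 and 508 with it, 14.9-fold higher. All 3 day controls lay under all 3 night controls, and the pulsed levels overlapped. SMZ, an AP2-family repressor of flowering, read 40.4, 25.3 and 27.5 in night controls, 156, 183 and 136 after the night pulse, 28.8, 26.0 and 26.4 in day controls, and 183, 259 and 220.1 after the day pulse. Its dark levels overlapped between the times and its folds were 5.10 and 8.16.

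Protein folding, repair and turnover was represented by 6 genes. HSC70-3 (AT3G09440), a cytosolic HSP70 chaperone, read 437, 299 and 450.1 in night controls and 2129, 2692 and 1686 after the night pulse. It read 152, 123 and 125 in day controls and 1334, 1888 and 1421 after the day pulse, so its folds were 5.48 and 11.6. The day controls again lay below all night controls while the pulsed arrays overlapped. AT1G54050, a small heat shock protein, had mean signals of 23.2 ± 6.54 and 267 ± 113 at night and 34.8 ± 10.4 and 159 ± 40.8 in the day (SD, n = 3), 11.5-fold and 4.59-fold higher after the pulses. It was among the 17 members with the larger ratio at night.

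MSRB6, a methionine sulfoxide reductase that repairs oxidized methionine, read 56.2, 37.7 and 33.7 in night controls, 241, 184 and 186 after the night pulse, 31.9, 38.9 and 46.8 in day controls, and 252, 410.1 and 358 after the day pulse. The dark levels overlapped, and every day-pulsed array was above every night-pulsed one. AT3G07090, of a family of thiol peptidases, had overlapping levels at both times, with night control arrays at 169, 90.6 and 118, night-pulsed arrays at 539, 631 and 519, day controls at 113, 92.5 and 94.5, and day-pulsed arrays at 575, 593 and 443. Its folds were 4.47 and 5.37, and neither the controls nor the pulsed arrays separated by time.

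AT5G12110, of the elongation factor 1-beta family that serves translation, was one of the few named members with higher pulsed levels at night. It read 31.9, 34.4 and 31.7 in night controls, 319, 409 and 225 after the night pulse, 14.5, 32.0 and 39.4 in day controls, and 95.5, 108 and 149.6 after the day pulse. Its dark levels overlapped and its night-pulsed arrays all lay above the day-pulsed ones, with folds of 9.72 and 4.11. PUB19, a U-box ubiquitin ligase, had night means of 18.4 ± 20.4 and 123 ± 78.0 and day means of 33.3 ± 3.36 and 173 ± 44.9 (SD, n = 3). Its night spread was wide, with night control replicate 3 and night pulse replicate 3 both the highest of their groups, at 41.5 and 213.

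Enzymes and lipid-binding proteins of the cell wall and of lipids made up 5 members. AT1G48100, a polygalacturonase, which cuts pectin, read 25.7, 26.7 and 31.5 in night controls, 262, 353 and 356 after the night pulse, 26.1, 8.79 and 9.99 in day controls, and 291, 369 and 321 after the day pulse. Both pulsed groups reached the same range, 11.6-fold above the night controls and at least 15.0-fold above the day controls. AT3G48460, of the GDSL esterase and lipase family, read 114, 67.1 and 79.2 in night controls, 795, 493 and 522 after the night pulse, 51.7, 42.3 and 36.8 in day controls, and 1394, 881 and 1093 after the day pulse. This gene started lower and ended higher in the day, without overlap on either side, so that its folds were 6.94 and 25.7.

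AT1G60590, of the pectin lyase-like family, was higher at night in both treatments. It read 81.0, 99.6 and 134 in night controls, 924, 935 and 724 after the night pulse, 18.8, 14.1 and 3.94 in day controls, and 152, 124 and 136 after the day pulse. No night array overlapped the day arrays of the same treatment, and the highest night control lay within the range of the day-pulsed arrays. The folds were 8.21 and at least 6.31.

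AT1G73600, a phosphoethanolamine methyltransferase of the phosphocholine pathway, followed the same order, with 122, 128 and 194 in night controls, 564, 638 and 1080.5 after the night pulse, 56.0, 45.3 and 37.6 in day controls, and 205, 177 and 327 after the day pulse. Its folds were 5.14 and 5.11. AT1G55960, of the START-like lipid-binding family, was higher in the day instead, with 56.4, 65.3 and 61.5 in night controls, 678, 702 and 557 after the night pulse, 247, 282 and 259.8 in day controls, and 2383, 2303 and 2355 after the day pulse. Its folds were 10.6 and 8.92, and no array of one time overlapped those of the other in the same treatment.

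Transport and metabolism was represented by 5 genes. NPF6.4 (AT3G21670), a member of the nitrate transporter family, read 86.1, 173 and 169.7 in night controls, 771, 978 and 891 after the night pulse, 80.5, 95.3 and 104 in day controls, and 1126, 2378 and 2539 after the day pulse. The dark levels overlapped and all day-pulsed arrays were above the night-pulsed ones, although day pulse replicate 1 read less than either other replicate, with folds of 6.16 and 21.6. AT5G15950, the S-adenosylmethionine decarboxylase at the edge of the set, read 115, 155 and 189.9 in night controls, 596, 578 and 684 after the night pulse, 31.3, 16.9 and 14.1 in day controls, and 487, 798 and 681 after the day pulse. The pulsed levels overlapped and the dark levels did not, so that a 4.04-fold night change stood beside a day change of at least 30.1-fold.

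AT5G42760, of the leucine carboxyl methyltransferase family, read 79.3, 64.5 and 81.2 in night controls, 809.5, 574 and 850.1 after the night pulse, 13.3, 5.85 and 22.5 in day controls, and 839, 490.5 and 556 after the day pulse. It had the same form, with overlapping pulsed levels and lower day controls, and folds of 9.93 and at least 28.9. AT5G02230, of the HAD-type hydrolase family, read 31.1, 32.7 and 22.9 in night controls, 178, 178 and 101 after the night pulse, 24.7, 17.5 and 4.81 in day controls, and 369, 358 and 327 after the day pulse. Here the controls overlapped and the day-pulsed arrays were all above the night-pulsed ones, 5.27-fold and at least 16.1-fold over their controls. AT4G33040, a CC-type glutaredoxin, had means of 33.3 ± 6.92 and 172 ± 31.7 at night and 16.6 ± 10.3 and 271 ± 104 in the day (SD, n = 3), folds of 5.15 and at least 12.4.

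**Figure D3:**
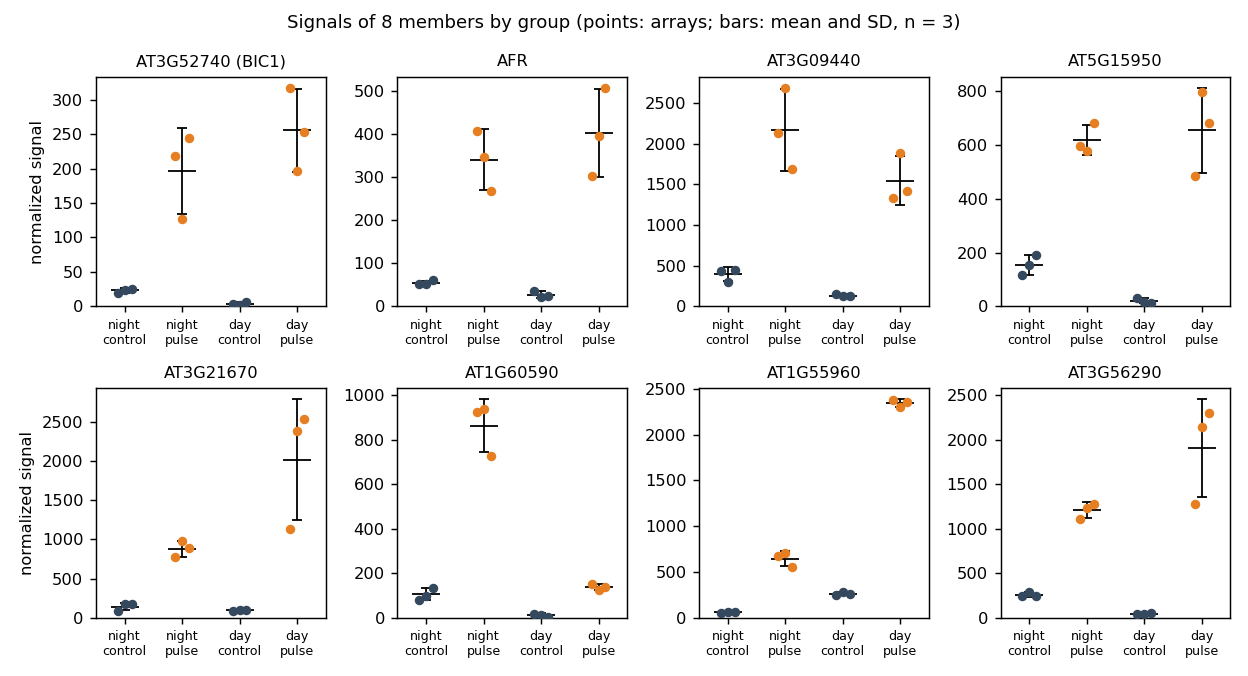
Normalized signal (linear vertical axis from 0) of BIC1, AFR, HSC70-3, AT5G15950, NPF6.4, AT1G60590, AT1G55960 and AT3G56290 in the 4 groups; points are arrays, bars the mean and SD of 3. Pulsed arrays are above control arrays of the same time in all 8 panels, AT1G60590 is higher at night and AT1G55960 in the day in both treatments.

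Other families with a name accounted for 4 genes on 5 probe sets. AT5G35970, of the P-loop ATPase family, had nearly equal dark levels, with 207, 180.0 and 191 at night and 256, 163 and 170.1 in the day. After the pulse it read 1236, 773 and 1043 at night and 2791, 2812 and 2453 in the day, without overlap, 5.28-fold and 13.7-fold above the controls. AT3G28270, an At14a-like protein, read 49.9, 76.0 and 33.4 in night controls, 430.4, 472 and 287 after the night pulse, 11.6, 12.7 and 8.29 in day controls, and 171, 607 and 655 after the day pulse. Day pulse replicate 1 stood well under the other day-pulsed arrays of this gene and under every night-pulsed one, and the folds were 7.46 and at least 21.9.

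AT5G54130, whose annotation names an EF-hand and a phosphatase-type domain, was the only gene with 2 probe sets among the 32 members with 1 gene name. One probe set read 49.6, 48.6 and 63.9 in night controls, 260.3, 323 and 432 after the night pulse, 25.8, 11.8 and 22.04 in day controls, and 407, 615 and 630.0 after the day pulse, 6.27-fold and at least 25.3-fold. The other had means of 22.2 ± 8.71 and 119 ± 60.2 at night and 12.6 ± 5.39 and 267 ± 175 in the day (SD, n = 3), 5.39-fold and at least 12.3-fold. Both probe sets thus gave the larger fold in the day. AT1G78070, a WD40 repeat protein, read 45.7, 36.4 and 22.9 in night controls, 89.5, 188 and 203 after the night pulse, 55.03, 22.2 and 28.8 in day controls, and 199, 848 and 629 after the day pulse, with folds of 4.58 and 15.8. Replicate 1 was the lowest array of both pulsed groups.

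For the other 8 named members no role is given. AT1G20070 came first among named members by the smaller of its ratios on the scale of the selection. It read 30.5, 16.2 and 45.3 in night controls, 626, 453 and 884 after the night pulse, 41.7, 15.4 and 15.96 in day controls, and 1552, 1676 and 1668 after the day pulse, 21.3-fold and 67.0-fold. Its dark levels overlapped and all day-pulsed arrays were above all night-pulsed ones.

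AT3G56290 read 242, 288 and 246 in night controls, 1109, 1229 and 1283 after the night pulse, 39.8, 46.2 and 52.3 in day controls, and 1281, 2143 and 2299 after the day pulse. The day controls were the low group, and the folds were 4.67 and 41.4. AT3G56260, with means of 15.5 ± 7.94 and 107 ± 23.4 at night and 11.4 ± 0.758 and 189.8 ± 17.3 in the day (SD, n = 3), was dim in both controls and at least 4.93-fold and 8.72-fold higher after the pulses. These genes are neighbours on the chromosome with 1 protein-coding gene between them in the TAIR10.1 annotation from RefSeq, the only pair among 30 placed member genes within 10 genes of each other.

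AT2G15020 read 13.2, 24.8 and 8.83 in night controls, 141, 201 and 133 after the night pulse, 1.96, 0.669 and 2.51 in day controls, and 75.7, 394 and 395 after the day pulse. It was dim in both controls, day pulse replicate 1 was again the low array, and the folds were at least 7.29 and at least 13.2. AT5G01790 read 30.7, 24.2 and 23.8 in night controls, 238, 155 and 197 after the night pulse, 7.19, 36.4 and 7.10 in day controls, and 431, 277 and 284 after the day pulse. Day control replicate 2 of this gene lay above all night controls and the other day controls below them, and the folds were 7.50 and at least 15.2.

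AT1G65490 read 101, 141 and 81.3 in night controls, 519, 416 and 462 after the night pulse, 49.6, 58.6 and 43.6 in day controls, and 702, 679 and 601 after the day pulse, 4.32-fold and 13.1-fold. It started lower and ended higher in the day, without overlap. AT5G43150 read 40.5, 46.8 and 38.9 in night controls, 204, 168 and 283 after the night pulse, 56.2, 95.9 and 61.3 in day controls, and 299, 249 and 363 after the day pulse, 5.18-fold and 4.27-fold. Its day controls lay above its night controls. AT3G15310 had means of 26.4 ± 6.61 and 121 ± 38.8 at night and 9.34 ± 8.70 and 114 ± 13.4 in the day (SD, n = 3), 4.58-fold and at least 5.26-fold.

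On the scale of the selection, with its floor of 20, the largest ratio in the day (136) and at night (26.7) belonged to probe sets with no gene name. Both values are themselves lower limits, as their control means on that scale, 17.1 in the day and 16.4 at night, lay under 20. Other members whose control lay at the floor also have only a lower limit and may exceed them. The day one read 77.2, 66.1 and 145 in night controls, 318, 651 and 644 after the night pulse, 33.5, 10.7 and 28.4 in day controls, and 2177, 4156 and 3652 after the day pulse. This was a 137-fold difference in the day beside 5.59-fold at night. The night one read 28.9, 14.3 and 13.8 in night controls, 620.0, 546 and 719.5 after the night pulse, 10.9, 7.88 and 7.95 in day controls, and 270.2, 133 and 205 after the day pulse, at least 28.9-fold and at least 9.32-fold. The first was far higher in the day after light and the second was higher at night.

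The selection bounded both ratios from below and set no order between the times. The difference between the pulse effects is made of those same ratios on the same arrays, so its calls describe how the members differ among themselves, and nothing is read from their share beside that of unselected probe sets. limma's moderated test with Benjamini-Hochberg adjustment over 13647 probe sets called 32 of the 82 members, 39.0%, against 12.7% of all tested probe sets. In 30 members the effect was larger in the day (background 7.47%) and in 2 it was larger at night (background 5.2%). The median difference, night effect minus day effect, was -1.04 log2 units over the members and 0.03 over all tested probe sets. The members' values ran from -4.60 to 3.43, and 50 were not called. The count of called members was 14 without normalization and 50 with array weights.

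All 14 named probe sets that were called had the larger effect in the day. AT3G56290 differed by -3.06 ± 0.30 (SE, adjusted p = 4.09e-05) and AT5G15950 by -2.87 ± 0.39 (adjusted p = 0.000484). AT5G42760 differed by -2.16 ± 0.48 (adjusted p = 0.0113), AT3G48460 by -1.84 ± 0.36 (adjusted p = 0.00481) and AT1G65490 by -1.54 ± 0.29 (adjusted p = 0.00394). These 5 kept their call under all 22 alternatives run. AT5G54130 differed by -2.11 ± 0.40 on one probe set (adjusted p = 0.00417) and was not called on the other at -1.68 ± 0.86 (adjusted p = 0.23). AT5G02230 differed by -2.24 ± 0.57 (adjusted p = 0.0207) and AT5G35970 by -1.42 ± 0.29 (adjusted p = 0.0065). Without normalization these 3 calls were lost (adjusted p = 0.0842, 0.0725 and 0.149), and that of AT5G35970 also with arrays centred on their medians, at -0.89 (adjusted p = 0.0942). All limma tests here were two-sided with n = 3 arrays per group.

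For 12 of the 30 members with the larger day effect the day control was dim, and where a signal is near the floor its log2 value carries little information. With every signal raised to at least 21.8 before log2, 26 of the 30 were called again and 4 were not. BIC1 was among the latter, at -2.59 ± 0.47 (adjusted p = 0.00328) as fitted and -0.54 ± 0.36 (adjusted p = 0.361) with raised signals. AT3G28270 went from -2.12 ± 0.62 (adjusted p = 0.0412) to -1.28 ± 0.61 (adjusted p = 0.183). AT2G15020 went from -2.72 ± 0.77 (adjusted p = 0.0353) to -0.61 ± 0.66 (adjusted p = 0.585), and because both its controls were dim its difference is not measured. For AT5G15950, AT5G42760 and AT5G54130 the difference remained called with raised signals, at -2.67 ± 0.34, -1.50 ± 0.32 and -1.92 ± 0.34. Over all 82 members the difference was measured for 50, a bound for 20 and not measured for 12. With raised signals 27 of the 82 were called with the larger effect in the day and 4 with the larger effect at night.

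Some calls were lost when 1 array, often any of several, was left out. AFR, at -1.21 ± 0.34 (adjusted p = 0.0346), lost its call when any of 9 of the 12 arrays was left out (adjusted p up to 0.0931), all but night pulse 1, day pulse 1 and day control 1. AT3G28270 likewise lost it for 9, all but night control 3, day pulse 1 and day control 1 (up to 0.11). AT2G15020 lost it for 8, all but night control 3, day pulse 1, day control 1 and day control 3 (up to 0.092). HSC70-3, at -1.06 ± 0.31 (adjusted p = 0.0385), lost it for 8, all but replicate 2 of both night groups and replicate 1 of both day groups (up to 0.103). NPF6.4, at -1.66 ± 0.44 (adjusted p = 0.0257), lost it without night pulse 1 or 3, night control 2 or 3, or day pulse 2 or 3 (up to 0.0723), and AT5G02230 without night pulse 3 (0.0571) or night control 2 (0.0526).

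The scaling also mattered for these genes. HSC70-3 was at -0.42 with arrays centred on their medians (adjusted p = 0.316), and its call was lost without normalization (adjusted p = 0.494), with trimmed-mean scaling (0.0504), with no filter (0.0507) and with no trend (0.0586). AFR lost its call without normalization (adjusted p = 0.272), with an offset of 16 (0.0506) and with no filter (0.05003), and NPF6.4 without normalization (0.244). AT3G28270 lost it without normalization (adjusted p = 0.239), with median centring (0.0575), with an offset of 16 (0.109), with no filter (0.0564) and with no trend (0.055). AT2G15020 lost it without normalization (adjusted p = 0.226), with median centring (0.0565), with an offset of 16 (0.169) and with no filter (0.0519).

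Both members with the larger night effect were unnamed probe sets, at 1.23 ± 0.33 and 3.43 ± 0.55. The second was dim in the night controls and was not called with raised signals. Among named members not called, AT1G54050 differed by 1.20 ± 0.48 (adjusted p = 0.119) and AT5G12110 by 1.12 ± 0.46 (adjusted p = 0.127), both toward the night. AT1G20070 differed by -1.71 ± 0.55 (adjusted p = 0.056), SMZ by -0.63 ± 0.31 (adjusted p = 0.207) and AT1G48100 by -0.98 ± 0.43 (adjusted p = 0.158), all toward the day.

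**Figure D4:**
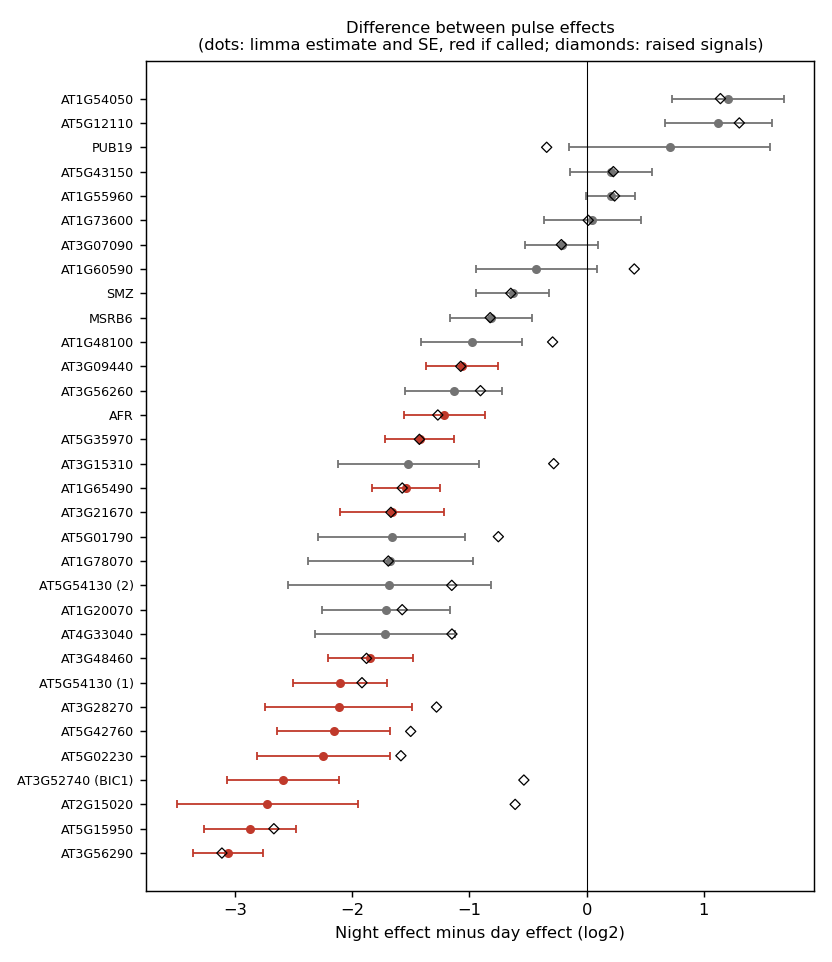
Night pulse effect minus day pulse effect (log2, horizontal) for the 32 named members, dots with SE from limma and red where called; diamonds give the same difference with signals raised to at least 21.8. All 14 red dots lie left of 0, and the diamonds of BIC1 and AT2G15020 lie close to 0, at -0.54 and -0.61.

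The dark controls of the 2 times were then compared with each other. The selection did not use this contrast, but its ratios were made of the same control and pulsed levels. Calls between the controls, and those between the pulsed arrays below, therefore describe the members and are no independent test. Of the 82 members 45 were called, 54.9%, against 48.4% of all tested probe sets, so the share was near the background. The directions were 34 higher at night (background 25.7%) and 11 higher in the day (background 22.6%), with a median of 0.71 log2 units over the members and 0.02 over all. The pulsed arrays of the 2 times gave 35 calls, 42.7%, against a background of 34.9%. Of these, 8 were higher at night (background 18.8%) and 27 in the day (background 16.1%), with a median of -0.61 over the members and -0.03 over all. Without normalization the pulsed split was 11 to 8, with the median of all probe sets at 0.45, with arrays centred on their medians 11 to 21, and with trimmed-mean scaling 11 to 25.

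**Figure D5:**
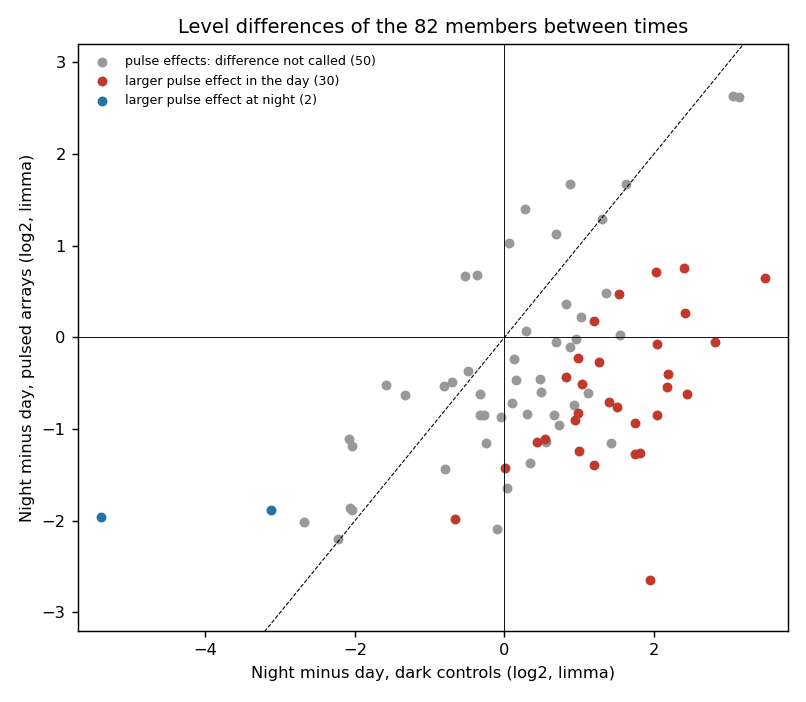
Night minus day level of each of the 82 members in dark controls (horizontal) and in pulsed arrays (vertical), both log2 from limma; points below the dashed line of equality have the larger pulse effect in the day. The 30 members with a called larger day effect are red, the 2 with a larger night effect blue and the 50 others grey.

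Among the 30 members with the larger day effect, 25 had a lower dark level in the day (background 25.7%) and 11 a higher pulsed level in the day (background 16.1%). The difference between pulse effects equals the pulsed difference less the control difference, so these counts only describe how it is made up. In 18 only the dark level was called, in 5 only the pulsed level and in 6 both, and 1 was called higher at night in both levels. The share of all tested probe sets in these joint classes was not counted, so nothing is read from them. A level that was not called may still differ, as in AT1G65490, one of the 18, whose pulsed arrays did not overlap at -0.51 ± 0.21 (adjusted p = 0.0729). AT5G15950 belonged to the first kind, with night minus day values of 2.81 ± 0.28 in the controls (adjusted p = 3.66e-06) and -0.06 ± 0.28 after the pulse (adjusted p = 0.9). AT5G42760 at 2.42 ± 0.34 (adjusted p = 7.19e-05), HSC70-3 at 1.54 ± 0.22 (adjusted p = 7.13e-05) and AFR at 0.98 ± 0.24 (adjusted p = 0.00434) also had the higher control at night and no call between pulsed levels. AT5G35970 belonged to the second kind, at 0.00 ± 0.21 in the controls (adjusted p = 0.996) and -1.42 ± 0.21 after the pulse (adjusted p = 0.000178), a call lost without normalization (adjusted p = 0.0609). AT3G48460 was called on both sides, at 0.94 ± 0.25 in darkness (adjusted p = 0.00758) and -0.90 ± 0.25 after light (adjusted p = 0.0144), the latter lost without normalization (adjusted p = 0.526), with median centring (0.051) and without night pulse 2 (0.0602) or 3 (0.0562).

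AT3G56290 was also called on both sides. Its controls were 2.44 ± 0.21 higher at night (adjusted p = 1.18e-06), while its pulsed levels, night minus day, differed by -0.62 ± 0.21 (adjusted p = 0.0372), a value that turned to 0.077 without normalization. That pulsed call was also lost with median centring (adjusted p = 0.19), with trimmed-mean scaling (0.0666), with no trend (0.0515) and without any one of the night-pulsed arrays, night control 3, or day pulse 2 or 3 (0.0523 to 0.148). BIC1 had a night minus day control difference of 2.19 ± 0.34 (adjusted p = 0.000139), which was 0.13 with raised signals (adjusted p = 0.707).

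Of the 50 members without a called difference between pulse effects, 22 had no call in any of the contrasts between times. Another 11 differed in the same direction in darkness and after light, 6 higher in the day and 5 higher at night. AT1G55960 was of the former, with -2.07 ± 0.15 in the controls (adjusted p = 2.45e-07), -1.87 ± 0.15 after the pulse (adjusted p = 1.76e-06) and a pulse difference of 0.21 ± 0.21 (adjusted p = 0.564). AT1G60590 was of the latter, with 3.06 ± 0.36 (adjusted p = 1.71e-05) and 2.63 ± 0.36 (adjusted p = 0.000126). AT1G73600 was as well, at 1.62 ± 0.29 (adjusted p = 0.000497) and 1.67 ± 0.29 (adjusted p = 0.00073), with a pulse difference of 0.05 ± 0.41 (adjusted p = 0.956). The level calls of these 3 genes held under all 22 alternatives run. How many of all tested probe sets fell into the same joint classes was not counted, so nothing is read from the counts of 22, 11, 6 and 5. Over all tested probe sets 48.4% were called between the controls and 34.9% between the pulsed arrays. A difference between pulse effects that was not called is not shown to be absent.

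AT5G12110 was called only between pulsed levels, 1.40 ± 0.32 higher at night (adjusted p = 0.00449). AT1G20070 was called only between pulsed levels in the other direction, at -1.37 ± 0.39 (adjusted p = 0.0147), a call lost without night pulse 2 (adjusted p = 0.0631) and without normalization (adjusted p = 0.311). By role, 4 of 5 members of transport and metabolism and 2 of 3 of light signalling and flowering had the larger day effect. The corresponding counts were 1 of 6 in protein folding, repair and turnover, 1 of 5 in cell wall and lipids, 3 of 5 probe sets in other families and 3 of 8 without a role. Among all 82 members it was 30 (background 7.47%). The role groups are small and were assigned after the members were known, so nothing is read from their counts. In cell wall and lipids all 5 controls were called between the times (background 48.4%), 4 higher at night and 1 in the day. AT1G48100, one of the 4 and dim in the day controls, was at 0.96 ± 0.31 (adjusted p = 0.0191) and at 0.27 with raised signals (adjusted p = 0.29). Its call was also lost without the arrays of high GAPDH ratio (adjusted p = 0.067) and without night control 3, day control 2 or day control 3 (0.0669 to 0.0828).

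Day pulse replicate 1, the array with the highest GAPDH ratio, was the lowest of its group for 49 of 82 members, against 21 for replicate 2 and 12 for replicate 3. The same count over all probe sets was not made, so nothing particular to the members is read from it. Without it and day control replicate 2, the rule gave 83 members, 82 of them shared, and 40 of the 82 differed between pulse effects, 38 toward the day and 2 toward the night, including all 32 called before. The controls then gave 46 calls and the pulsed levels 45, of which 37 were higher in the day. Calls over all tested probe sets rose as well. They went from 1728 to 1982 for the difference between pulses, from 6602 to 6989 for the controls and from 4761 to 5716 for the pulsed levels. The part of RNA quality in these levels was not tested.

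Genes of related pathways were taken from lists drawn up with earlier results of these data known, and few had a named probe set. Of 36 light signalling genes, 2 had one. BIC1 was tested and is a member, and FHL, a regulator of phytochrome A transport, was too dim to test. No gene of the clock list (16 genes) had one. Of 12 heat shock genes only ROF2, a co-chaperone of HSP90, was tested. It rose at night by 1.96 ± 0.37 (adjusted p = 0.00277) and in the day by 2.50 ± 0.37 (adjusted p = 0.000113), without reaching the set. Its night control mean, 16.3, lay under 21.8, so the size of its night rise is uncertain. LCYB, the carotenoid enzyme lycopene beta-cyclase and the only 1 tested of 25 photoprotection genes, rose in the day by 0.39 ± 0.14 (adjusted p = 0.0337) and was not called at night, at 0.02 ± 0.14 (adjusted p = 0.962). In the night pulse 6.07% of all probe sets were called higher and 6.82% lower, and in the day pulse 21% and 21.8%.

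Of 16 cold and dehydration genes, 4 were tested and none is a member. At night 1 fell and 3 were not called, and in the day 1 rose, 2 fell and 1 was not called. COR27, a repressor in light and clock signalling, fell by 2.64 ± 0.31 at night and fell by 2.60 ± 0.31 in the day. COR28, its relative, fell by 2.37 ± 0.58 in the day (adjusted p = 0.00506) and had -1.88 ± 0.58 at night (adjusted p = 0.0506). COR47, a dehydrin, rose by 0.79 ± 0.28 in the day (adjusted p = 0.0344) and had 0.88 ± 0.28 at night (adjusted p = 0.0542). ZAT10, a zinc finger repressor of stress responses, had 1.18 ± 0.54 in the day (adjusted p = 0.0953).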

How the data were processed

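The authors' deposited table holds linear intensity values, one for each probe set on each of 12 Affymetrix ATH1 arrays. They were made with MAS5, per the submitters' processing notes, which give no version or settings. Of 22810 probe sets, 64 control probe sets were left out. Gene names came from GEO's platform annotation, which named 1 gene for 13513 probe sets (13436 matching RefSeq by identifier), several for 503 and none for 8730. Members and gene lists were chosen with earlier results of these data known, and roles were assigned after the members were known.

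Signals were raised by 2, taken to log2 and quantile normalized; normalized signals are these values back on a linear scale, less 2. Probe sets with a mean above the 40th percentile were kept (13647). A single model with all 4 groups was then fitted in limma (version 3.58.1, R version 4.3.3), using lmFit and eBayes with an intensity trend; 8 degrees of freedom were residual and the median after moderation was 13.3. Calls were made at a Benjamini-Hochberg adjusted p under 0.05 over all probe sets kept, and the fits were tested on simulated data. Alternatives were other scalings, another offset, raised signals, no filter, no trend, array weights, a replicate block and leaving out each array. All named members are described. Values on every array are given for the 12 named members with the largest smaller fold, the largest called differences, list members and the brightest 4 of each role. No sequences or positions are given, and the promoter motif description that had been planned was not run.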

Additional observations from a re-analysis of the deposited data

Results flagged for a closer look

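For 14 named probe sets the pulse effect differed between night and subjective day by the limma test of that difference itself. In all 14 the effect was larger in the day. The difference is made of the same pulse-to-control ratios, on the same arrays, that chose the members. The values, night effect minus day effect in log2 units, were -3.06 for AT3G56290, -2.87 for AT5G15950, -2.72 for AT2G15020, -2.59 for BIC1 (AT3G52740), -2.24 for AT5G02230, -2.16 for AT5G42760, -2.12 for AT3G28270 and -2.11 for AT5G54130. The smaller ones were -1.84 for AT3G48460, -1.66 for NPF6.4 (AT3G21670), -1.54 for AT1G65490, -1.42 for AT5G35970, -1.21 for AFR and -1.06 for HSC70-3 (AT3G09440). Day controls were dim for AT2G15020, BIC1, AT5G02230, AT5G42760, AT3G28270, AT5G54130 and AT5G15950. The fitted difference of BIC1 and AT3G28270 was no longer called with raised signals, and that of AT2G15020 is not measured because both its controls were dim. AT5G12110 and AT1G20070, not among the 14, were called when signals were raised. AT5G12110 then had the larger effect at night (adjusted p = 0.038) and AT1G20070 in the day, at -1.57 ± 0.45 (adjusted p = 0.0301).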

How the results depend on the processing

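The number of members was 43 with a floor of 50, 158 without a floor, 159 at 3-fold, 27 at 6-fold, 31 when the lowest pulsed array had to exceed the highest control array by the same fold, and 71 to 87 when one array was left out. Members whose pulse effects differed numbered 14 without normalization, 50 with array weights and 22 to 41 with one array left out, where the controls gave 42 to 49 and the pulsed levels 25 to 43, or 19 without normalization. Over all probe sets the night pulse gave 669 calls without normalization, 3094 with array weights and 1105 (without night control 2) to 2295 with one array left out. The day pulse gave 3721 without normalization and 4728 to 6162 with one array left out. The difference between pulses gave 439 without normalization, 2728 with arrays centred on their medians, 4369 with array weights and 1147 (without night control 3) to 2650 (without day control 1) with one array left out, the controls 5531 to 7429 and the pulsed levels 3797 to 5227. The share of these differences larger at night was 41.0%, and 74.7% with median centring and 28.2% with trimmed-mean scaling, where the median over all probe sets was 0.31 and -0.16 in place of 0.03.

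Some small pulse differences changed sign. AT1G60590 turned to 0.40 with an offset of 16 and 0.41 with raised signals, and ran from -0.79 to 0.11 (without day control 3) with one array left out. AT1G73600 turned to -0.038 without normalization, -0.22 with trimmed-mean scaling, -0.38 with array weights and -0.037 without the arrays of high GAPDH ratio. With one array left out it ran from -0.24 to 0.31, below 0 without night pulse 3, night control 1 or 2, day pulse 1 or 2, or day control 1. AT5G43150 turned to -0.12 with trimmed-mean scaling and -0.016 without the arrays of high GAPDH ratio, and ran from -0.021 (without day control 2) to 0.38. AT3G07090 turned to 0.12 with median centring and ran from -0.42 to 0.023 (without night control 1). The pulsed level difference of AT3G56290 turned to 0.077 without normalization. The cause was not tested.

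With the replicate number as a block, pulse effects differed for 37 members, controls for 52 and pulsed levels for 37. Over all tested probe sets the block gave 2019, 6928 and 5102 calls, against 1728, 6602 and 4761 without it. The numbers were not shown to pair the arrays, since 8 of 18 same-numbered pairs correlated above 0.1 (r from -0.11 to 0.45) and 5 of 12 arrays correlated best with their own number. Dropping the arrays of high GAPDH ratio was added after seeing the data. Members with dim controls limit the day folds to bounds.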
